A study of Mus musculus with 4 samples.

Results

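Accessible chromatin was examined at 8 genes of the tumour necrosis factor (TNF) superfamily that carry death and inflammatory signals between cells, in cultured natural killer (NK) cells of the mouse spleen. The genes were the ligands Fasl, Tnfsf10, Tnf, Lta, Ltb and Tnfsf14 and the receptors Fas and Tnfrsf10b. Accessible regions were chosen by position alone: a region belonged to one of these genes when no other protein-coding gene was closer to it, counting the distance to the edge of the gene, or 0 inside it, and settling ties by the closer gene end. This gave 69 regions of the 91266 in the deposited list. All cells were wild type, of strain C57BL/6, and were cultured for 72 h in the cytokine interleukin-15 (IL-15), which keeps NK cells alive. The groups were a high dose (2 samples) and a low dose (2 samples), whose concentrations the labels do not give, and about 75000 cells entered each ATAC-seq reaction, in which a transposase cuts open chromatin and tags it for sequencing.

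NK cells kill in part by placing ligands of this family on their surface. Fas ligand and TRAIL (the product of Tnfsf10) engage the death receptors Fas and DR5 (the product of Tnfrsf10b) on the target, which recruit an adaptor and a caspase that starts apoptosis. TNF, lymphotoxin alpha (Lta), lymphotoxin beta (Ltb) and LIGHT (Tnfsf14) signal through related receptors, more often toward inflammation and lymphoid tissue organisation than toward death.

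The deposited tables hold the positions of regions, with 2 lists, named up and down, of those that the authors called different between the doses. Values per sample, fold changes and p-values are not among them, so the spread between replicates and the sequencing depth are unknown and no difference between the doses was tested here. Which dose was the reference is not stated, and up and down are used below as names of lists only. Regions lay within 10 kb of all 6 NK cell genes checked (Ncr1, Klrb1c, Eomes, Tbx21, Gzmb and Prf1), and each of these had a region over its promoter window. Of 8 genes of other spleen cells, 7 had a region within 10 kb, the exception being the macrophage gene Adgre1. Of the 4 of these genes with a promoter window in the reference table, Itgax, which NK cells can also express, had a region over it, whereas Cd3e, Cd3g and Ly6g had none. The part of other cells in the regions below was not tested.

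The starts of the genes were examined first, except that of Tnfrsf10b, which is not in the table used. Of the 7 genes with a promoter window in the RefSeq table (250 bases before to 50 after the gene's start, build GRCm38.p6), 6 had an accessible region over the window. Over all 17492 protein-coding genes with a window, 55.8% had a region over at least one. The region covered the whole window of Fasl, Fas, Tnfsf10, Tnf and Tnfsf14 and 272 of the 300 bases of Ltb. Lta was the exception: no region touched its window, and the nearest one, of 307 bp, lay 472 bp away inside the gene. The RefSeq span of Lta begins upstream of the start on which this window is set, though within the window, and that outer end was 748 bp from the same region. All 6 regions over the windows were unlisted. Among the 9478 regions over promoter windows of protein-coding genes, 0.707% were up and 0.232% were down, so most such regions were unlisted throughout the genome.

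The windows of 5 genes are shown because they set the window of Lta, which had no region, beside the covered ones of its neighbours Tnf and Ltb, and the window of the ligand Fasl beside that of its receptor Fas. Each is read 5′ to 3′ along transcription, and capitals mark every match, on either strand, to one of 9 motifs searched: NF-kB in a pair of spellings of its consensus, STAT5 (TTCNNNGAA), AP-1 (TGANTCA), NFAT (GGAAAA), RUNX (TGTGGT), T-box (AGGTGTGA), ETS (CCGGAAGT) and the TATA box (TATAAA), where N is any base. The windows are chr1:161788446-161788745 on the minus strand for Fasl, chr19:34290409-34290708 on the plus strand for Fas, chr17:35201958-35202257 on the minus strand for Tnf, chr17:35205302-35205601 on the minus strand for Lta and chr17:35194257-35194556 on the plus strand for Ltb.
Fasl: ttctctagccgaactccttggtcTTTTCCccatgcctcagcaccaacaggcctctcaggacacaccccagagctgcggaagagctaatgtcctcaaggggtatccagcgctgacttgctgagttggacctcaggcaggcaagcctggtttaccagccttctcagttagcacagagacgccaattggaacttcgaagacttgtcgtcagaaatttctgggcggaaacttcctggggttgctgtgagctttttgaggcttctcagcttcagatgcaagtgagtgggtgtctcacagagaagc
Fas: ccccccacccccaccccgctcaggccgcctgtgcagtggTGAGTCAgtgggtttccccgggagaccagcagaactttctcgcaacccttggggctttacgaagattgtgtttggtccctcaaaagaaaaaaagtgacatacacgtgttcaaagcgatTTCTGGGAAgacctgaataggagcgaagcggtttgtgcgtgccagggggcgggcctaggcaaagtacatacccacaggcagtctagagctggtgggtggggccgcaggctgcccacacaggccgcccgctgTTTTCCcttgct
Tnf: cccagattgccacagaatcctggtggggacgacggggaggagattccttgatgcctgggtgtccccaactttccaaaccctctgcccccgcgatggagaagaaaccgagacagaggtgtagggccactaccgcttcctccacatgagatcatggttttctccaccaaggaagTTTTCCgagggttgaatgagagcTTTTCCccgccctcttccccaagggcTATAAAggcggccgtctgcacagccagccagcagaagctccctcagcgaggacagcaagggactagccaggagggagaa
Lta: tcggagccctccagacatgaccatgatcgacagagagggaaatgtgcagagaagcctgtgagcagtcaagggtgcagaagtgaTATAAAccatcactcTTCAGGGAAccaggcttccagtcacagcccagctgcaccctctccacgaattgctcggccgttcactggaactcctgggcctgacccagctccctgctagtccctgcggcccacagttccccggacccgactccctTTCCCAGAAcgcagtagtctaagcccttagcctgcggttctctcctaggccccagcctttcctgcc
Ltb: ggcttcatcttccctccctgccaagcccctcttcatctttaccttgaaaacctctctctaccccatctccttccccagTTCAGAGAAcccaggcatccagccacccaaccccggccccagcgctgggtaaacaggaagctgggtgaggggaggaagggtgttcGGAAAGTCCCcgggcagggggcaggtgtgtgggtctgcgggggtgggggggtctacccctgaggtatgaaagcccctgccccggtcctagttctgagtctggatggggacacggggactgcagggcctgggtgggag

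Positions of motifs are counted from the gene's start, which is base 0. The Tnf window held a TATA match at bases -29 to -24 and a pair of NFAT matches, at -78 to -73 and at -55 to -50. The Ltb window held the one NF-kB match of the 7 windows, at -87 to -78 on the opposite strand. That spelling occurred in 0.411% of all 32851 promoter windows in the table. STAT5, the transcription factor that IL-15 signalling activates, had matches in 3 of the 7 windows: Fas at -93 to -85, Ltb at -172 to -164, and Lta at both -152 to -144 and -16 to -8. Of all windows, 8.30% held such a match. The Lta window, with no region over it, thus carried as many STAT5 matches as the covered windows of Fas and Ltb together. AP-1 matches lay at -211 to -205 in Fas and at -160 to -154 in Tnfsf14, against 7.81% of all windows with a match. NFAT matches were found in Fasl, Fas and Tnf, against 23.4% of all windows, and TATA matches in Tnf and Lta, against 13.6%. The RUNX letters (16.8% of all windows) were found in Tnfsf14 alone. The other NF-kB spelling, the T-box pattern and the ETS pattern had 0 matches in the 7 windows, and occurred in 0.664%, 1.28% and 3.89% of all windows. The Tnfsf10 window held none of the 9 motifs. The base composition of the windows was ordinary, with a GC content from 52.3% in Tnfsf10 to 63.3% in Ltb (median of all windows 52.7%) and from 6 CpG dinucleotides in Tnfsf10 to 14 in Fas (median of all windows 7). A match describes letters in these windows and says nothing of binding.

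In the authors' lists were 3 of the 69 regions, or 4.35%, close to the 5.61% of all regions that they hold. One was up, at the receptor gene Tnfrsf10b, and 2 were down, at the ligand genes Fasl and Tnfsf10. The up region was 1.45% of the 69, against 4.21% of all regions. The down regions were 2.90%, against 1.40% of all regions. The down region of Fasl was assigned by the nearest-gene rule: 1 down region, that of Tnfsf10, was left among the 45 regions within a gene or 10 kb of it, the 22 overlapping a gene and the 41 assigned when genes of any biotype were allowed. With 3 listed regions no difference from the background is read from these shares, and regions are not replicates. The other 5 genes, Fas, Tnf, Lta, Ltb and Tnfsf14, had no region in either list.

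**Figure D1:**
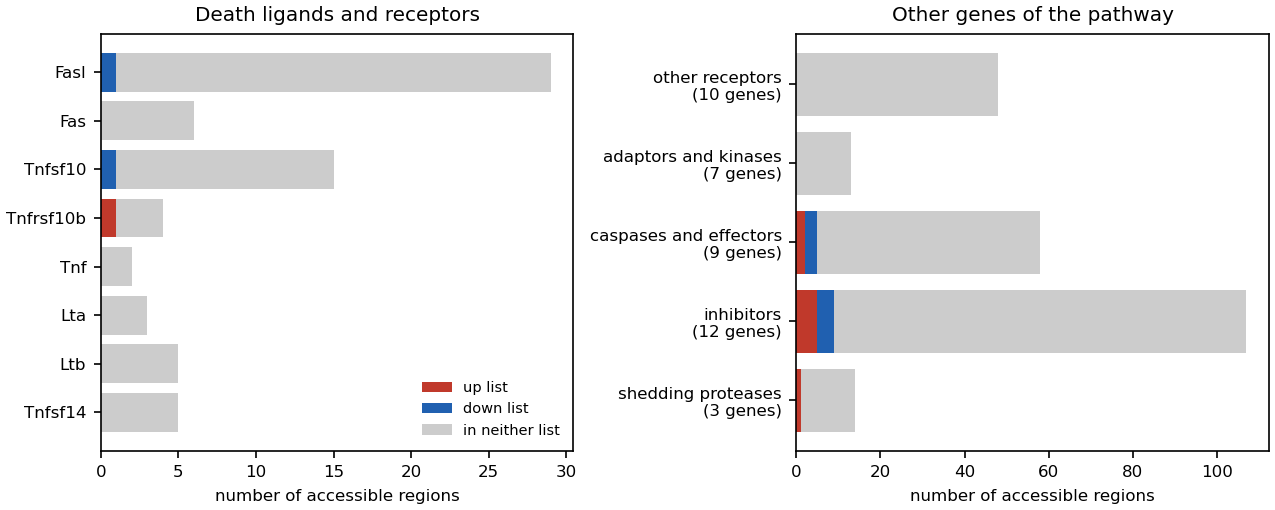
Number of accessible regions (horizontal axis) by nearest gene for the 8 death ligands and receptors (left) and by group for 41 other genes of the pathway (right), with colours for the authors' up and down lists. Fasl has the most regions of the 8, at 29, and the 3 listed regions of the 8 genes sit 1 each at Fasl, Tnfsf10 and Tnfrsf10b.

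The 69 regions covered 35.1 kb and had a median width of 387 bp (quartiles 247 and 785 bp), against 400 bp (252 and 653 bp) for all regions. Fewer of them were inside genes: 31.9% overlapped the span of their gene, against 61.1% of all regions, and 14.5% lay more than 50 kb from it, against 11.0%. Fasl held 42.0% of the 69 regions, among them all 10 beyond 50 kb. Without it, 20 of the remaining 40 regions overlapped their gene and 0 lay beyond 50 kb.

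Fasl, which encodes Fas ligand, had the most regions of the 8 genes under the nearest-gene rule. It lies on chromosome 1 at 161780691 to 161788495 on the minus strand, and 29 regions were nearest to it. Of all 16392 genes with at least 1 region, 98.2% had fewer. The median gene had 3. Its neighbours are far apart, with 275 kb to Tnfsf18 on one side and 27.6 kb to Suco on the other. Within the stretch nearer to Fasl than to those genes, 159 kb long, there were 18.2 regions per 100 kb. Density was compared among 13425 genes with at least 1 region, a neighbour on each side and no overlapping gene. Of these, 89.3% were less dense (median 6.85). By density Fasl was below Tnfsf10 (20.2), Lta, Tnf and Ltb, and of its 29 regions 8 lay within the gene or 10 kb of it, against 9 of the 15 of Tnfsf10. Downstream of its end lay 22 regions in 138 kb of territory, or 16.0 per 100 kb, and upstream of its start 5 in 13.8 kb, or 36.2 per 100 kb. A further region was inside the gene and another over the start. The median gap between neighbours was 3042 bp, against 6906 bp over all regions.

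The region over the start of Fasl was 946 bp wide, at 161787860 to 161788805, and the 1 inside the gene was 424 bp wide. Downstream, 4 regions between 13 and 17 kb from the gene's end overlapped the long noncoding RNA gene Gm31869, the widest of them measuring 1109 bp. Beyond these the regions continued to 131 kb, and 10 lay more than 50 kb away. The widest of all, of 1136 bp at 161734181 to 161735316, was 45.4 kb from the gene. The single listed region of Fasl was down. It was 1103 bp wide, the third widest of the 29, and lay at 161750617 to 161751719, which is 29.0 kb downstream of the gene's end and 36.8 kb from its start. It was 2.83 kb from the pseudogene Gm5049 and 10.7 kb from Gm31869, and overlapped no annotated gene. The regions on either side of it, of 365 bp and 150 bp, were unlisted. Among all regions within 10% of its width, 1.13% were down and 1.13% were up. At 10 to 50 kb from the nearest gene, 1.32% of regions were down and 5.92% were up. The last region assigned to Fasl on the far side was 131 kb from it. The next one outward was 148 kb from it and 126 kb from Tnfsf18. The downstream territory of Fasl was 138 kb, so the outermost region lay near the border with Tnfsf18.

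**Figure D2:**
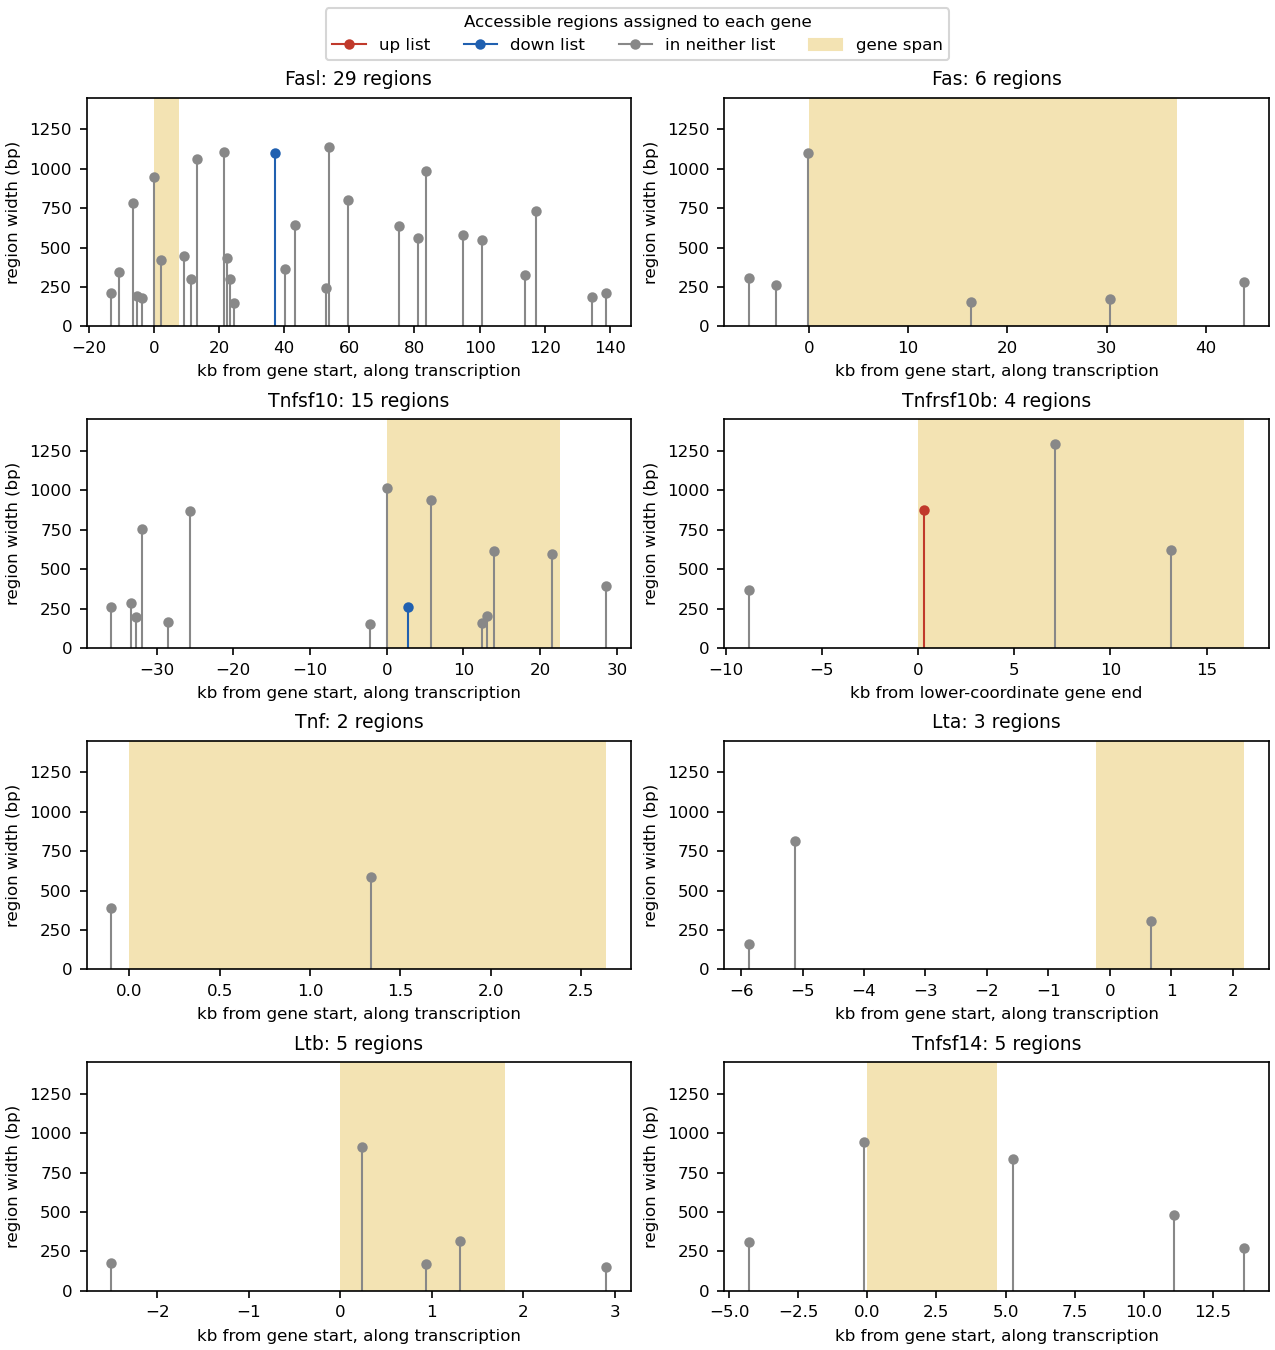
Each accessible region is drawn as a line at its distance from the gene's start (horizontal axis, kb, to the right along transcription; for Tnfrsf10b from the lower-coordinate end of the gene) with its width in bp as the height, and the gene span is shaded; horizontal scales differ between panels. Fasl shows a row of regions reaching 131 kb past the gene, with the down region 36.8 kb from the start, while in Tnfsf10 the down region is narrow and inside the gene, and in Tnfrsf10b the up region covers the lower-coordinate end of the gene.

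Tnfsf10, which encodes TRAIL, was the second gene rich in regions, with 15. It lies on chromosome 3 at 27317077 to 27339665 on the plus strand, and 91.9% of genes had fewer regions. The region over its start was 1012 bp wide, at 27316622 to 27317633. A further 6 lay inside the gene, 7 upstream and 1 downstream. The upstream regions formed 2 sets: 1 region of 152 bp at 2.08 kb from the start, and 6 regions from 25.2 to 35.8 kb away, the widest of 870 bp. The farthest was at an edge of the rule: the next region outward was 36368 bp from Tnfsf10 and 35004 bp from Nceh1, to which it was assigned. The single listed region was down and was narrow, 262 bp at 27319756 to 27320017, 2.68 kb inside the gene. It stood between the region over the start and another wide region of 941 bp, both unlisted. Only 27.3% of all regions were narrower than it. Regions of about its width were seldom listed: among 11782 within 10% of it, 0.577% were down and 1.91% were up. Of all regions inside a gene and away from its ends, 1.58% were down and 3.98% were up.

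The wide down region outside Fasl and the narrow one inside Tnfsf10 had the list in common and little else that was measured. They differed 1103 to 262 bp in width, and 1 was outside every gene while the other was within the gene it was assigned to. In both genes the opening over the start was unlisted.

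Tnf, Lta and Ltb stand side by side on chromosome 17, in 11.1 kb from the start of Ltb to the outer end of Lta, and encode TNF and the lymphotoxin chains. They held 10 regions, from 150 to 914 bp wide with a median of 312.5 bp, and 0 of these were in either list. The nearest down region was assigned to Vwa7, 177 kb from Ltb, and the nearest up region to Tnxb, 508 kb from it. Regions were dense here: Ltb had 5 regions in its 6.36 kb of nearest territory, or 78.6 per 100 kb. Of the 13425 genes compared, 99.9% were less dense. For Tnf and Lta the densities were 42.1 and 29.2 per 100 kb, against the median of 6.85. Their territories were short as well, at 4.75 and 10.3 kb, because the genes stand close together. In a short territory few regions make a high density: Tnf had 2.

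Ltb, which encodes the membrane-anchored chain of lymphotoxin, had the largest share of its length covered of the 8 genes, with 65.6% of its span of 1799 bp inside regions. A region of 914 bp at 35194285 to 35195198 covered its start, and others of 171 bp and 318 bp followed inside the gene. Tnf had 2 regions, 387 bp over the start at 35201913 to 35202299 and 587 bp inside the gene at 35200375 to 35200961, which together took up 25.8% of its span. Of the gene starts covered by a region among the 8 genes, that of Tnf had the narrowest. Lta, which encodes the secreted lymphotoxin chain, had 12.7% of its span in regions. Its widest region, of 814 bp at 35210065 to 35210878, lay upstream, 4.49 kb outside the gene, and another of 158 bp followed 265 bp further out.

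**Figure D3:**
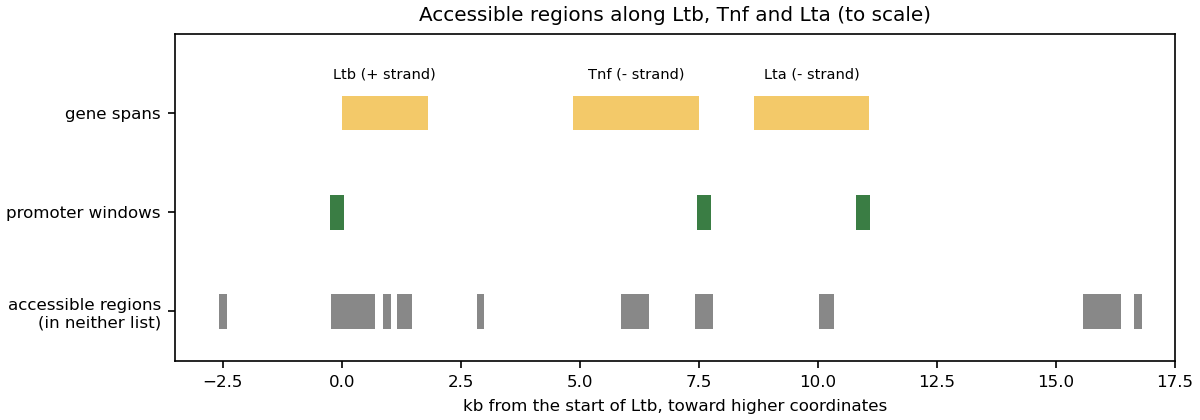
Gene spans, 300-base promoter windows and accessible regions along the Ltb, Tnf and Lta genes, drawn to scale in kb from the start of Ltb. The windows of Ltb and Tnf lie over accessible regions and that of Lta does not, and all 10 regions are in neither list.

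Tnfsf14, which encodes LIGHT, lies apart from these genes on chromosome 17, at 57189474 to 57194181 on the minus strand. Its 5 regions measured 274, 481, 839, 947 and 311 bp in order of coordinate. The 947 bp region at 57193819 to 57194765 covered its start, and the 839 bp region began 159 bp beyond its other end. None was listed. The nearest up region was 226 kb away and assigned to Acer1, and the nearest down region was 5310 kb away.

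Of the receptors, Tnfrsf10b, which encodes DR5, the mouse death receptor for TRAIL, had the up region. The gene lies on chromosome 14 at 69767472 to 69784411, and its strand and promoter window were not in the table used. It had 4 regions, of 368, 875, 1291 and 623 bp in order of coordinate. The up region was the 875 bp one, at 69767357 to 69768231, with 115 bp outside the gene and 760 bp inside, so that it covered the lower-coordinate end. It was also 244 bp from the end of the long noncoding RNA gene 4930480K23Rik. Regions over a gene end were seldom up: 77 of 9833, or 0.783%, and 33 of these 9833 (0.336%) were down. Among regions within 10% of its width, 2.79% were up. The 1291 bp region inside the gene, at 69773964 to 69775254, was the widest of all 69 and was unlisted.

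Fas, the receptor for Fas ligand, had 6 regions and none was listed. The gene lies on chromosome 19 at 34290647 to 34327775 on the plus strand. One region, of 1098 bp at 34290044 to 34291141, covered its start, and was the widest of the 7 regions over a start or gene end at these genes. The other 5 were narrow, from 156 to 310 bp. Only 2.22% of the span of Fas lay in regions, the lowest share of the 8 genes, with 2 regions inside a gene of 37129 bp. Around Fas there were 4.70 regions per 100 kb, which made it the only one of the 8 genes below the median of 6.85. Fas had 6 regions to the 29 of Fasl, but within the gene or 10 kb of it the numbers were 6 and 8. Both genes had a wide unlisted region over the start.

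**Figure D4:**
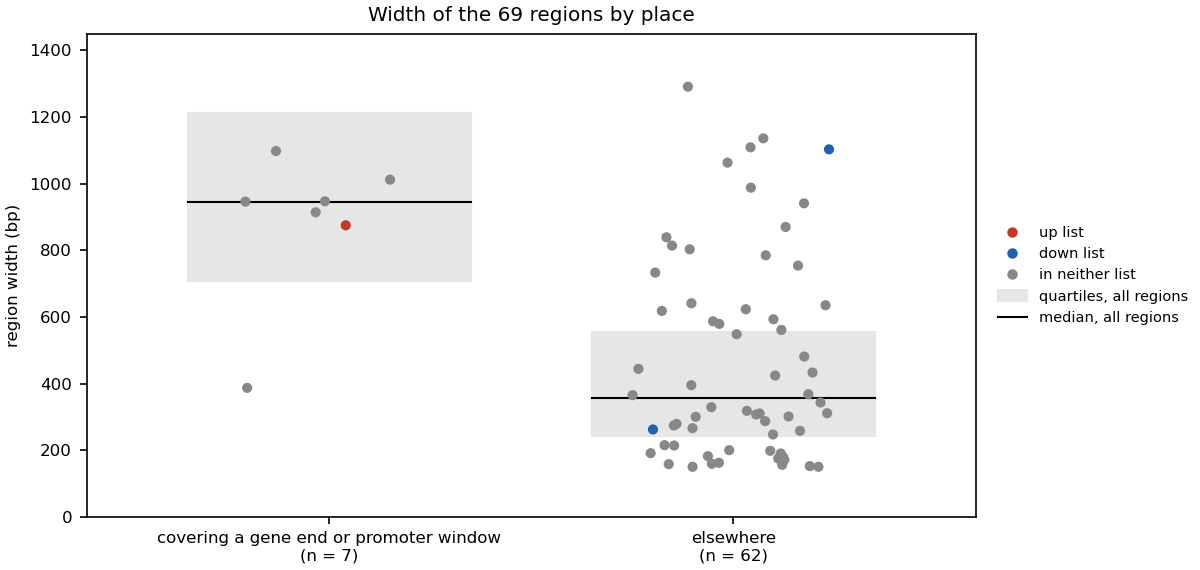
Width in bp of the 69 regions, split into 7 that covered a gene end or a promoter window and 62 elsewhere, one point per region coloured by list, with shaded quartiles and a line at the median of all regions of the same kind. Regions over gene ends are wide, with a median of 946 bp in both the 7 and all such regions, and Tnf is the low point at 387 bp.

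The pathway beyond these 8 genes was described with 41 genes in 5 groups by role, of which 40 were the nearest gene to at least 1 region. Together they held 240 regions, of which 8 (3.33%) were up and 7 (2.92%) were down, against 4.21% and 1.40% of all regions. The 10 other receptors of the family, among them the TNF receptors Tnfrsf1a and Tnfrsf1b, the lymphotoxin receptor Ltbr and the LIGHT receptor Tnfrsf14, had 48 regions and 0 in either list. The 7 adaptors and kinases that couple receptors to caspases or to necroptosis, such as Fadd, Tradd and Ripk1, had 13 regions and again 0 in either list. Listed regions were found in the other 3 groups.

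The 9 caspases and mitochondrial effectors had 58 regions, of which 3.45% were up and 5.17% were down, against 4.21% and 1.40% of all regions. With so few listed regions no difference is read from these shares. Apaf1, which assembles the apoptosome, had 1 of 9 up inside the gene. Cycs, which encodes cytochrome c, had 3 of 13 down, all of them between 36.5 and 41.9 kb from the gene. These lay close together on chromosome 6, between 50519701 and 50526059. Casp8, the initiator caspase that death receptors recruit, had 8 regions with 0 listed.

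The 12 inhibitors, a mixed group acting on cell death or NF-kB signalling, had 107 regions. Of these, 4.67% were up and 3.74% were down, against 4.21% and 1.40% of all regions. Among all regions 10 to 50 kb from the nearest gene, 5.92% were up and 1.32% were down. Listed regions were found at 4 of the 11 genes that had a region, while of all 16392 genes with a region 20.1% had a listed one. The 4 genes with a listed region had from 7 (Birc3) to 38 (Tnfaip3) regions, against a median of 3 per gene. A gene with more regions has more that can be listed. The other inhibitors with a region had from 1 to 17. Cflar, which encodes the caspase-8 inhibitor c-FLIP, had 2 of 12 up, one inside the gene and one 2.44 kb outside. Cyld, a deubiquitinase that restrains NF-kB signalling, had 3 of 9 up, from 19.3 to 40.8 kb away. Tnfaip3, which encodes the NF-kB inhibitor A20, had 3 of 38 down, at 13.3, 19.5 and 169 kb. Birc3, which encodes the ubiquitin ligase cIAP2, had 1 of 7 down inside the gene. Among the 3 proteases, Adam10, which releases membrane-bound ligands including Fas ligand, had 1 of 8 up inside the gene, and Adam17, which releases TNF, had 3 regions and 0 listed.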

How the data were processed

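ATAC-seq was performed on 4 samples, 2 per dose of IL-15. The authors deposited 3 tables of positions: all regions with their width in bp, and the regions they listed as up or down. The submitters' processing notes name build mm10 and the tools BWA, ArchR, MACS2 and HOMER 4.11.1, with no role for each. How peaks were called (for each sample or after pooling) and how up and down regions were tested and filtered is not given in the sources used here. There were 0 columns of values per sample, so no test was made and depth is unknown.

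Starts in the full list were 0-based and were raised by 1. All 3845 up and 1275 down regions were then found in it. Coordinates are 1-based. Genes and promoter windows came from RefSeq tables of GRCm38.p6, the assembly that mm10 names, with 21900 protein-coding genes, and 7 of the 8 genes had a window. The tables do not divide genes into exons and introns. The territory of a gene ran to the midpoints between it and its neighbours. Assignment was tested on simulated positions of 1 chromosome, which held no ties between genes. The motif search was tested on random sequences with planted motifs. Both were run in Python 3.11.15 with pandas 2.3.3. The genes, pathway list and motifs were chosen with earlier results of these data known. All 8 genes are described, and pathway genes are named where they have a listed region or as unlisted examples of their group, except 1 gene that is counted but not reported here. One pathway symbol, Fam129b, was matched through its synonym Niban2.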

Additional observations from a re-analysis of the deposited data

How the results depend on the processing

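No value carried a replicate error, no replicate could be left out, and stricter thresholds on the authors' calls could not be set, since the tables hold positions only. In all 8 alternatives the up count stayed at 1, the region of Tnfrsf10b. The number of regions, 69, became 45 for regions within a gene or 10 kb of it, 22 for those overlapping its span and 41 with the nearest gene of any biotype. The down count of 2 became 1 in each of those 3 settings, in which the region outside Fasl was not assigned and that of Tnfsf10 was. Under the other 5 settings the down count was 2 and the number of regions was between 51 and 102. Depth limits are unknown, and an unlisted region is not shown to be equally open at both doses.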

Other observations

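Other ligand genes of the TNF superfamily next to or near the 8 genes were not part of the description above. Tnfsf18, which encodes GITR ligand, is the next gene to Fasl and had 1 up region among 5, of 548 bp at chromosome 1, 161479800 to 161480347, 14.3 kb outside the gene. Tnfsf4, which encodes OX40 ligand, is the next gene beyond it and had 1 up region among 7, of 675 bp at 161375869 to 161376543, 18.9 kb outside the gene. The nearer of these up regions is 300 kb from Fasl. Of all regions 10 to 50 kb from the nearest gene, 5.92% were up and 1.32% were down. Cd70, which encodes the ligand of CD27 and lies next to Tnfsf14, had 2 regions. Tnfsf9, which encodes the ligand of 4-1BB and is on the same chromosome, had 4. Both had 0 in either list. Up regions were also found at neighbours outside the superfamily. Ch25h, next to Fas, had 1 up region among 5, and Nceh1, next to Tnfsf10, had 1 among 13. Suco, Acta2, Ghsr, Chmp7, Rhobtb2, Lst1, Nfkbil1 and C3 had 0 in either list. The genes of the superfamily in this paragraph were singled out after their values were seen.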
